A study of Ovis aries with 24 samples.

Results

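The genes described are 10 markers of macrophages and other leukocytes, taken by symbol from the deposited gene counts: PTPRC, LAPTM5, CSF1R, TYROBP, CD14, CD68, C1QA, C1QB, CD163 and CD3E. Of these, 9 have a row of that name among the 27054 counted features; CD163 is not analysed here. They were measured by RNA-seq in cultured sheep pituitary cells, in 24 libraries that form 4 groups of 6: unsorted vehicle, unsorted E2, sorted vehicle and sorted E2. All 4 groups came from pituitaries of ovariectomized Western white faced ewes that were dispersed and put in culture. Every culture received, 24 hours after dispersal, an adenovirus that directs green fluorescent protein (GFP) to gonadotropes, the cells that secrete luteinizing and follicle-stimulating hormone. The cells were treated 3 days later, for 6 hours, with ethanol (vehicle) or with 10 nM estradiol (E2). Sorted libraries hold cells collected by fluorescence-activated sorting, unsorted libraries the mixed anterior pituitary cells; it is not said in the labels if unsorted cells also passed the sorter, or if libraries with the same replicate number come from 1 culture.

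Leukocytes reside in most tissues, and the anterior pituitary holds resident macrophages among its hormone-secreting, folliculostellate, vascular and connective tissue cells. PTPRC encodes CD45, a tyrosine phosphatase on nearly all nucleated blood cells, and LAPTM5 a lysosomal membrane protein of haematopoietic cells. CSF1R is the receptor that macrophages need for survival, TYROBP (DAP12) an adaptor that carries the signal of myeloid receptors such as TREM2, CD14 the co-receptor that passes lipopolysaccharide to TLR4, and CD68 a lysosomal glycoprotein. C1QA and C1QB encode chains of C1q, the recognition part of the first complement component, which tissue macrophages make. CD3E is a chain of the CD3 complex that accompanies the T cell receptor.

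Depth split the libraries by number: replicates 1 to 3 of the 4 groups had totals of 4.19 to 6.19 M counts, replicates 4 to 6 of 19.2 to 37 M, so each group holds 3 libraries of either depth. The labels name no batch. Levels are CPM, counts scaled to 1 common library size by the TMM method, and they are not divided by gene length, so levels are compared between libraries and not between genes. A summed level over 6 gonadotrope markers was 2492 to 5632 CPM in the sorted vehicle libraries and 292 to 1323 CPM in the unsorted vehicle ones, and all 5 of these markers that were tested were higher after sorting (median log2 fold change 2.45). Among markers of other pituitary cells, 6 of 8 tested folliculostellate and stem cell genes were lower in sorted vehicle libraries (2 higher). So were 6 of 10 fibroblast and pericyte genes (1 higher) and 5 of 8 endothelial genes (none higher). The fit that gave these counts called 50.2% of all genes, 25.8% lower and 24.4% higher. The summed fibroblast and pericyte level was 986 to 2009 CPM sorted and 5713 to 13560 CPM unsorted. For the folliculostellate and stem cell genes it was 2214 to 2981 against 4812 to 6284 CPM, and for the endothelial genes 18.3 to 48.5 against 38.6 to 86.5 CPM. The part that these other cells play in the results on leukocyte genes was not tested. In bulk RNA, fewer cells of a type and less RNA per cell cannot be told apart.

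Sorted libraries held far less RNA of 5 leukocyte genes than unsorted ones. In vehicle libraries CSF1R, PTPRC, TYROBP and C1QB kept 1.78% to 6.24% of their unsorted level, and LAPTM5 kept 12.6%. CD14 kept 47.6%. CD68 and C1QA did not pass the test, and CD3E stood at 208% of its unsorted level. Each percentage is the ratio of counts pooled over 6 libraries, after scaling for library size, so the deeper replicates 4 to 6 weigh most. With all expressed genes fitted, and none left out for low counts, edgeR's quasi-likelihood test called 6 of the 9 genes lower and 1 higher at a Benjamini-Hochberg adjusted p under 0.05. In that fit 35.1% of all genes were called, 18.4% of them lower and 16.7% higher, and the median log2 fold change was -3.15 over the 9 genes and 0.02 over all genes. The main fit leaves out genes with low counts. There, 50.2% of genes were called (25.8% lower, 24.4% higher). Only CSF1R, LAPTM5, CD14, CD68 and CD3E entered it. CSF1R owed its place to its unsorted level and CD3E to its sorted level. For CSF1R, CD3E and the 4 genes that did not enter, the fold changes between sorted and unsorted libraries below come from the fit without the filter.

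**Figure D1:**
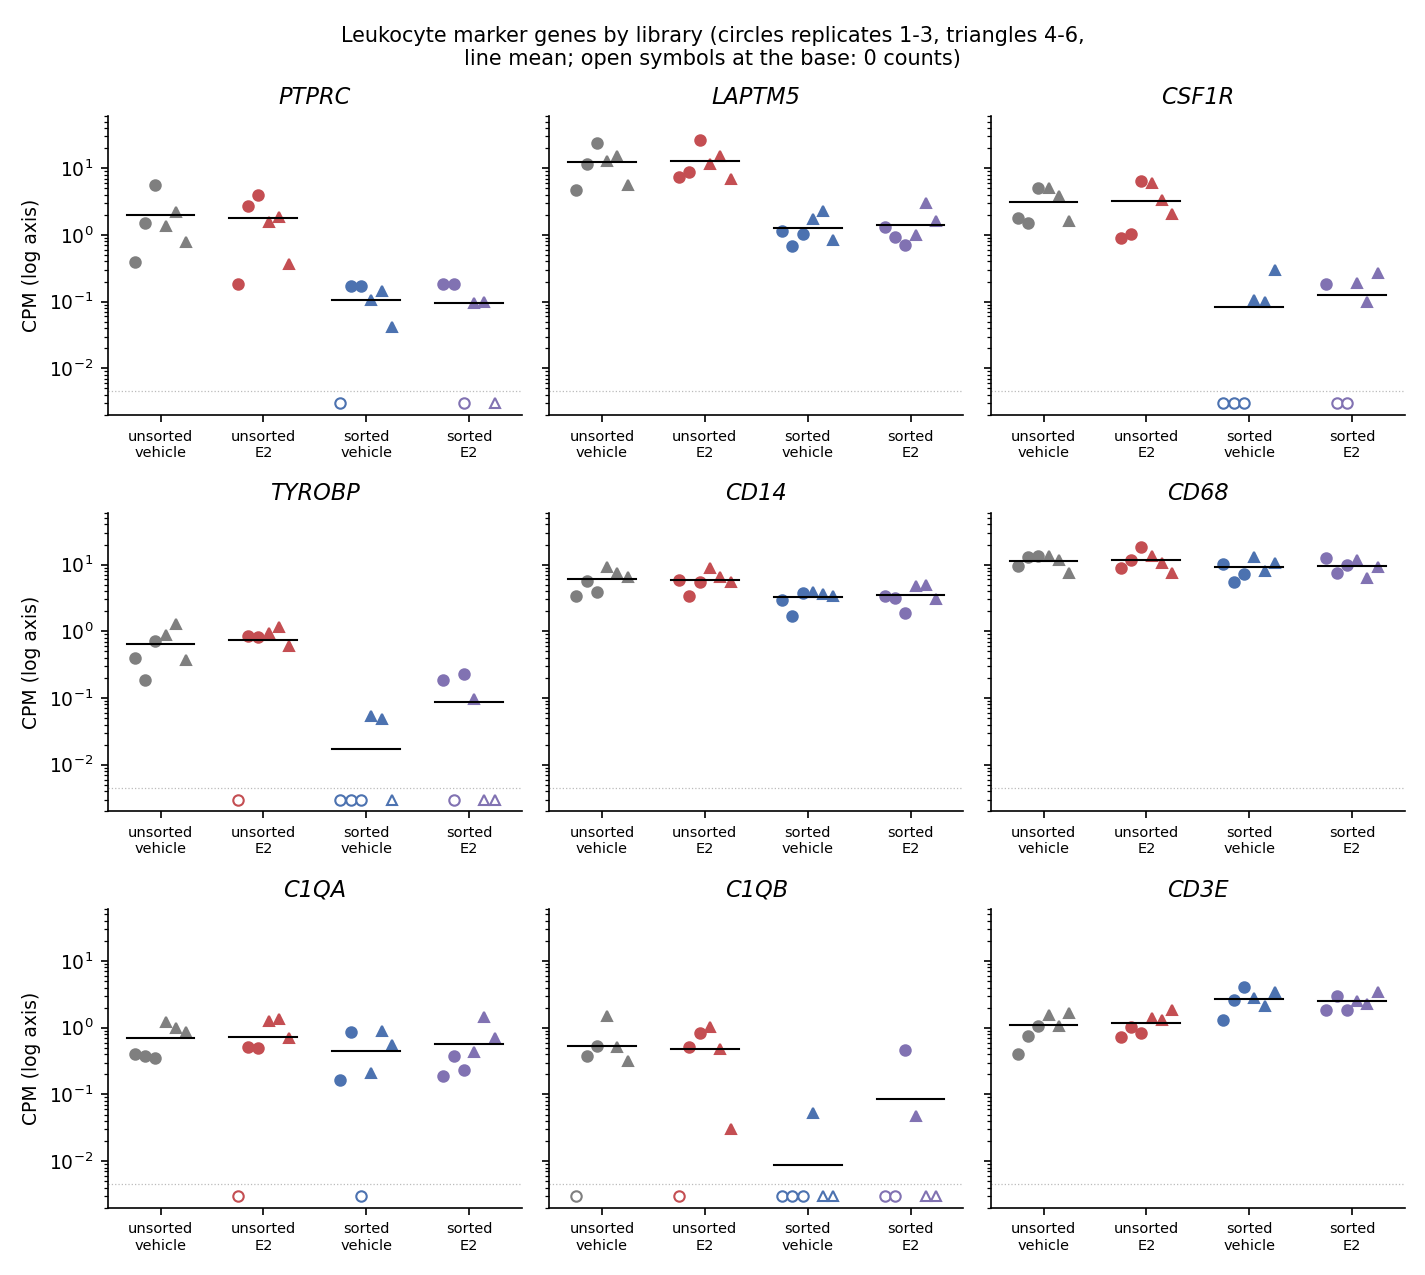
Level of each leukocyte gene in each of the 24 libraries, in CPM on a log axis, by group; circles are replicates 1 to 3, triangles replicates 4 to 6, black lines group means, and open symbols at the base libraries with 0 counts. PTPRC, LAPTM5, CSF1R, TYROBP and C1QB drop from the unsorted to the sorted groups, CD68 and C1QA overlap throughout, and CD3E is higher in the sorted groups.

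PTPRC and LAPTM5 mark leukocytes of every lineage. PTPRC ranged from 0.399 to 5.53 CPM in the unsorted vehicle libraries, with a median of 1.42 CPM. In the sorted vehicle libraries it ranged from 0 to 0.172 CPM, with a median of 0.126 CPM, on 8 counts in all against 192. The groups did not overlap, and the sorted library was the lower one in 6 of 6 pairs of equal replicate number. This is a log2 fold change of -4.12 ± 0.66 (SE; adjusted p = 0.00011 by edgeR's quasi-likelihood test). Under E2, 6 counts stood against 169, or 5.39% of the unsorted level (exact 95% interval 1.95% to 12%, counting error only), and the fold change was -4.30 ± 0.79 (edgeR adjusted p = 0.00045). In that comparison the groups overlapped through replicate 1, whose sorted library held 0.186 CPM and whose unsorted library held 0.181 CPM, each from 1 count.

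LAPTM5 had a lowest, median and highest level of 4.78, 12.1 and 23.9 CPM in unsorted vehicle libraries and of 0.683, 1.09 and 2.29 CPM in sorted ones. Unlike the rarer genes it was counted in all 24 libraries, with 117 counts over the sorted vehicle libraries. The groups did not overlap, and the mean fell from 12.3 ± 7.0 to 1.29 ± 0.61 CPM (SD, n = 6 each; log2 fold change -3.18 ± 0.41, edgeR adjusted p = 2.5e-05). Under E2 the means were 12.7 ± 7.4 and 1.42 ± 0.84 CPM (log2 fold change -3.05 ± 0.41, edgeR adjusted p = 4.1e-05). Again no sorted library reached an unsorted one. The pooled residue was 6.99% (exact 95% interval 4% to 11.4%) in vehicle replicates 1 to 3 and 14.3% (11.5% to 17.5%) in replicates 4 to 6. Under E2 it was 6.89% and 16.5%. Single pairs did not follow depth. Vehicle replicates 1, 2 and 3 held 1.16, 0.683 and 1.03 CPM sorted against 4.78, 11.5 and 23.9 CPM unsorted. Replicates 4, 5 and 6 held 1.75, 2.29 and 0.838 CPM against 12.8, 15.4 and 5.68 CPM. Replicate 1, of the shallow set, thus kept the largest share. The difference between the depth sets was not tested, and intervals cover counting error only.

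CSF1R entered the main fit by its unsorted level, so its values here come from the fit without the filter. Its unsorted vehicle libraries held 1.5 to 5.13 CPM, with a median of 2.82 CPM. The sorted vehicle libraries held 0, 0, 0, 2, 2 and 7 counts in replicates 1 to 6, for a highest level of 0.293 CPM. The highest sorted library lay below the lowest unsorted one, and 11 counts stood against 408, which is 4.04% of the unsorted level (exact 95% interval 2% to 7.31%). The log2 fold change was -4.59 ± 0.56 (edgeR adjusted p = 7.3e-06), or -5.43 without sorted vehicle replicate 6. With E2 the sorted counts were 1, 0, 0, 4, 2 and 6, and 13 counts stood against 445 (4.44%, 2.34% to 7.67%). The log2 fold change was then -4.35 ± 0.61 (edgeR adjusted p = 3.8e-05).

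The ligands of CSF1R moved in opposite directions. CSF1, which was measured at 8.20 to 17.9 CPM in unsorted vehicle libraries, was lower after sorting (log2 fold change -1.71 ± 0.25, edgeR adjusted p = 7.7e-05) and kept 28% of its level. IL34, the other ligand, was higher in sorted vehicle libraries by 0.53 ± 0.19 on the log2 scale (edgeR adjusted p = 0.027). Its sorted libraries held 34.4 to 62.2 CPM and its unsorted ones 18.7 to 42.7 CPM, so these groups overlapped.

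TYROBP was counted at 0, 0, 0, 1, 1 and 0 in the sorted vehicle libraries and at 2, 1, 4, 29, 45 and 14 in the unsorted ones. The 2 counts against 95 amount to 3.15% of the unsorted level (exact 95% interval 0.377% to 11.7%). The groups did not overlap, with a log2 fold change of -4.47 ± 0.72 (edgeR adjusted p = 0.00011). Under E2 it was -3.68 ± 0.78 (edgeR adjusted p = 0.0014), with 4 counts against 102; unsorted replicate 1 held 0 counts, so these groups overlapped. Replicates 1 to 3 alone, with 2 against 10 counts, did not pass (-1.93, edgeR adjusted p = 0.22).

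TREM2, a receptor that signals through TYROBP, had 0 counts in each of the 12 sorted libraries, against 39 counts in unsorted vehicle and 44 in unsorted E2 libraries. Set against a floor of 3 counts over the 6 sorted libraries (0.0371 CPM with vehicle, 0.0382 CPM with E2), TREM2 was at least 8.68-fold and 9.66-fold lower. SYK, the kinase that binds the phosphorylated adaptor, fell by 2.93 on the log2 scale (SE 0.22, edgeR adjusted p = 2.1e-07) and kept 15%. HCST (DAP10), a related adaptor whose gene lies next to TYROBP in the sheep assembly ARS-UI_Ramb_v3.0, had 15 counts sorted and 20 unsorted, or 112% of the unsorted level (exact 95% interval 53.5% to 231%).

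CD14, the lipopolysaccharide co-receptor, fell as well. Its lowest, median and highest levels were 3.39, 6.05 and 9.20 CPM in unsorted vehicle libraries and 1.71, 3.50 and 3.83 CPM in sorted ones. The ranges overlapped, although the sorted library was lower in 6 of 6 pairs with either treatment. The log2 fold change was -0.92 ± 0.26 with vehicle (edgeR adjusted p = 0.0089) and -0.76 ± 0.26 with E2 (edgeR adjusted p = 0.025). Under E2 the call was lost without sorted replicate 6 (adjusted p = 0.053) or without unsorted replicate 4 (adjusted p = 0.059). In replicates 1 to 3, fitted alone without the replicate block, it passed with neither treatment (adjusted p = 0.21 and 0.082, edgeR). The partners of CD14 in lipopolysaccharide sensing were lower too in sorted vehicle libraries: TLR4 by a log2 fold change of -2.42 ± 0.16 (edgeR adjusted p = 8.3e-08), its co-factor LY96 by -1.39 ± 0.29 and TLR2 by -1.81 ± 0.44.

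CD68 did not pass in either sort comparison. Unsorted vehicle libraries held 7.59 to 13.5 CPM (median 12.4) and sorted ones 5.46 to 13.1 CPM (median 9.12). The ranges overlapped, and the sorted library was lower in 4 of 6 pairs. The log2 fold change was -0.33 ± 0.21, with a 95% interval of -0.75 to 0.09 (edgeR adjusted p = 0.21), and -0.30 ± 0.23 with E2 (edgeR adjusted p = 0.30). Fitted with the replicate block, vehicle replicates 1 to 3 gave -0.67 (edgeR adjusted p = 0.03) and replicates 4 to 6 gave -0.05 (adjusted p = 0.82). In ARS-UI_Ramb_v3.0 the span of CD68 overlaps those of EIF4A1 and SOX15. How the counting treated strand is not known, so reads of overlapping genes may have been exchanged. EIF4A1, a translation initiation factor, averaged 668 CPM sorted and 927 CPM unsorted with vehicle.

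**Figure D2:**
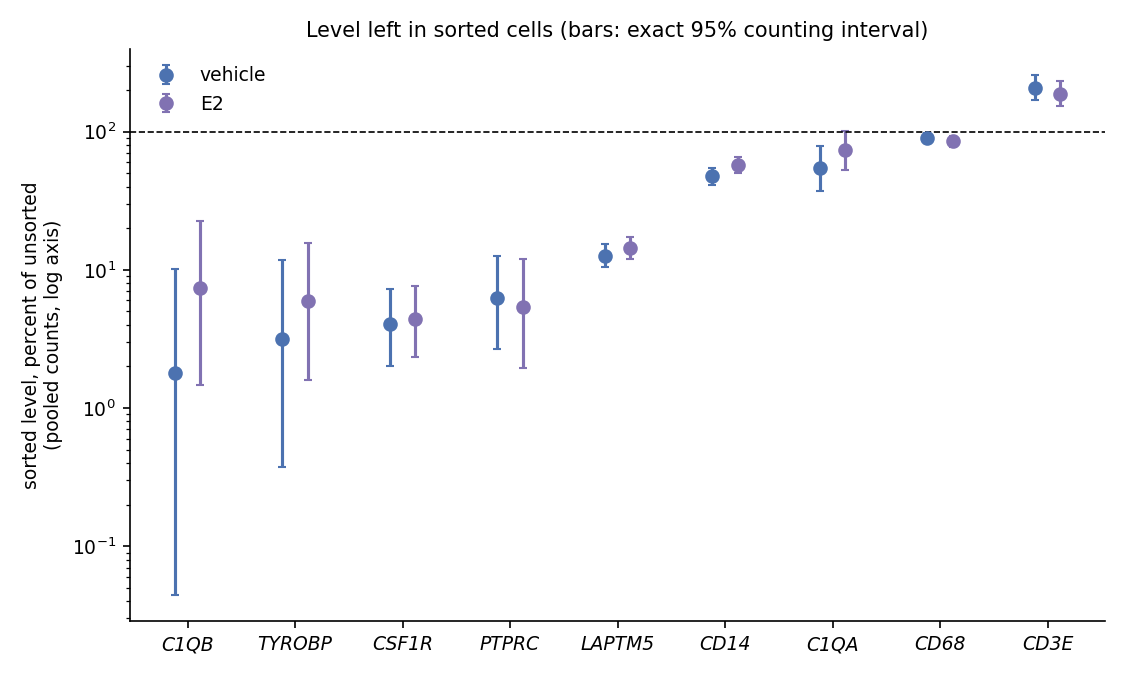
Level in sorted libraries as a percentage of the unsorted level, on a log axis, for vehicle and E2; points are ratios of counts pooled over 6 libraries per group, bars exact 95% intervals for counting error, and the dashed line 100%. C1QB, TYROBP, CSF1R, PTPRC and LAPTM5 lie at or below 14.4%, CD14, C1QA and CD68 between 47.6% and 89.9%, and CD3E at 188% and 208%.

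Of the C1q chains C1QB fell and C1QA did not pass the test. C1QB had 84 counts in unsorted vehicle libraries (0, 2, 3, 49, 18 and 12 in replicates 1 to 6) and 1 count in sorted ones, or 1.78% (exact 95% interval 0.0446% to 10.2%). C1QA had 2, 2, 2, 40, 34 and 32 counts unsorted, and 1, 5, 0, 4, 18 and 13 counts sorted. It thus kept 54.9% (37.4% to 79.1%). Sorted C1QA levels lay inside or below the unsorted range and were lower in 5 of 6 pairs. The log2 fold change was -4.96 ± 0.91 for C1QB (edgeR adjusted p = 0.0004) and -0.72 ± 0.53 for C1QA (edgeR adjusted p = 0.30). The value for C1QB rests on single libraries: it was -6.36 without sorted vehicle replicate 4, which holds the 1 sorted count, and -4.22 without unsorted vehicle replicate 4.

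The third chain gene, C1QC, lies between C1QA and C1QB in ARS-UI_Ramb_v3.0. It had 31 counts in unsorted vehicle and 38 in unsorted E2 libraries, and 0 in all 12 sorted ones, at least 6.9-fold and 8.34-fold lower against the floor of 3 counts per group. Of the reads on C1QA and C1QB together, C1QB thus held 42.9% in unsorted vehicle libraries (84 of 196, exact 95% interval 35.8% to 50.1%) and 2.38% in sorted ones (1 of 42, 0.0603% to 12.6%). Under E2 the shares were 34.1% (62 of 182) and 4.92% (3 of 61, 1.03% to 13.7%). These shares are not molar ratios, since gene length enters them, and their difference was not tested over libraries.

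Under E2 the log2 fold change of C1QB was -3.35 ± 1.05 (edgeR adjusted p = 0.02) and that of C1QA -0.37 ± 0.55 (adjusted p = 0.62). It was -4.62 for C1QB without sorted E2 replicate 3. The C1QB call under E2 was lost without sorted replicate 5 (adjusted p = 0.05), sorted replicate 6 (0.052) or unsorted replicate 4 (0.061), and in replicates 1 to 3 alone (0.36), where 2 of the 3 sorted counts fell in replicate 3. The call with vehicle was lost in replicates 1 to 3 alone (edgeR adjusted p = 0.11). The proteases that C1q activates were higher in sorted vehicle libraries: C1R by a log2 fold change of 1.15 ± 0.41 (edgeR adjusted p = 0.033) and C1S by 1.55 ± 0.41 (adjusted p = 0.0068). Their inhibitor SERPING1 had -1.36 ± 0.54 (edgeR adjusted p = 0.054; 0.00086 with the replicate block).

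**Figure D3:**
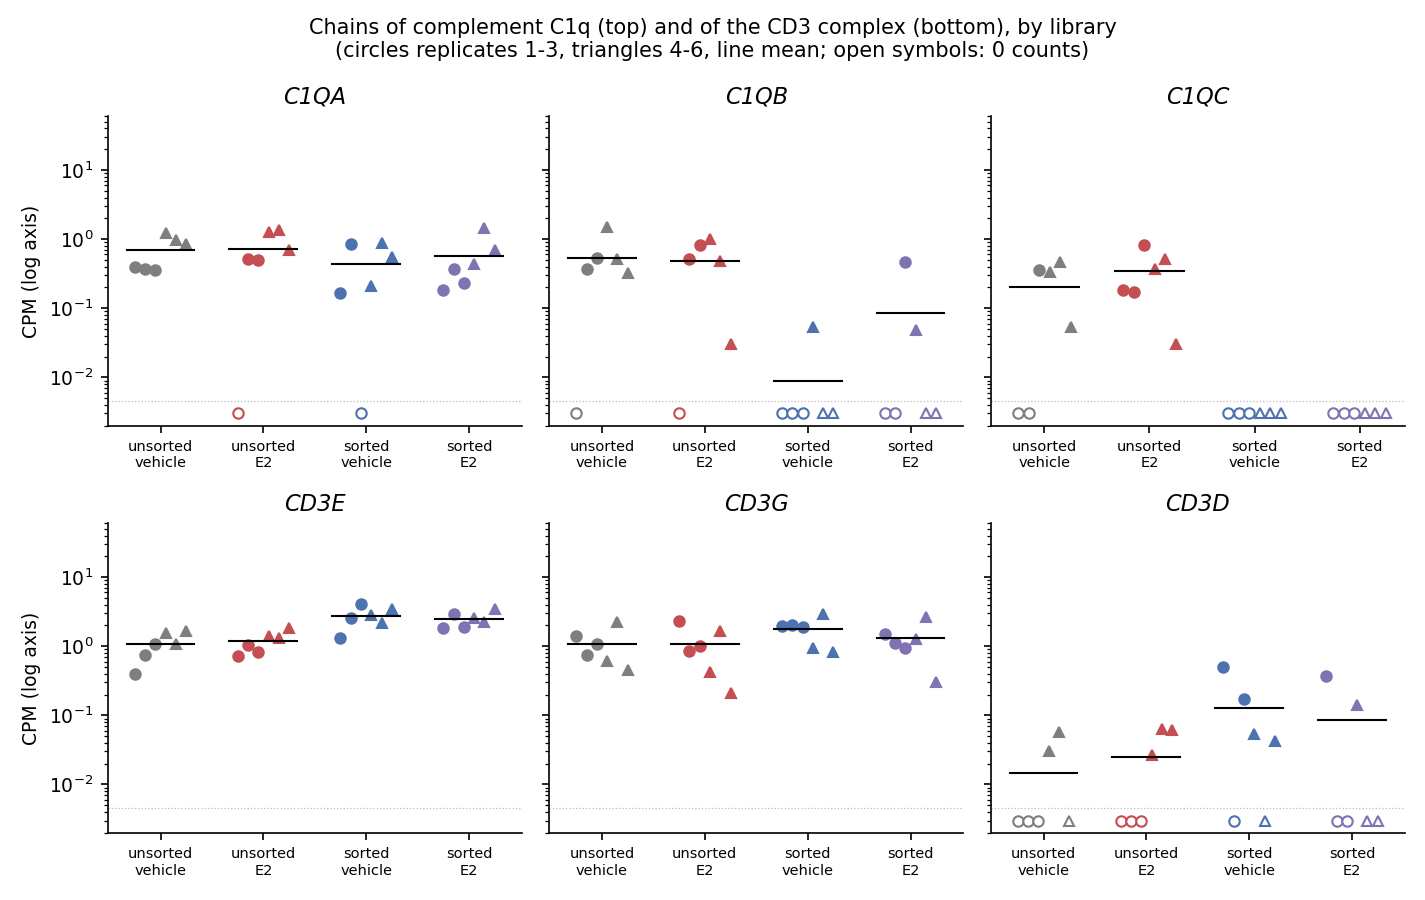
Level in each library of the C1q chains C1QA, C1QB and C1QC (upper row) and of the CD3 chains CD3E, CD3G and CD3D (lower row), in CPM on a log axis; circles are replicates 1 to 3, triangles replicates 4 to 6, black lines group means, open symbols libraries with 0 counts. C1QC is at 0 in all 12 sorted libraries while C1QA is counted in 11 of them, and CD3D holds at most 3 counts in any library.

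CD3E, the T cell marker, was higher in sorted libraries. Its lowest, median and highest levels were 0.399, 1.07 and 1.67 CPM in unsorted vehicle libraries and 1.32, 2.69 and 4.13 CPM in sorted ones. Sorted replicate 1 lay within the unsorted range and the other 5 sorted libraries above it. The sorted library was the higher one in 6 of 6 pairs. CD3E entered the main fit by its sorted level, so its fold changes here come from the fit without the filter. With vehicle the log2 fold change was 1.21 ± 0.34 (edgeR adjusted p = 0.0094). Under E2 the sorted libraries held 1.86 to 3.45 CPM and the unsorted ones 0.723 to 1.84 CPM. Those groups did not overlap, and the log2 fold change was 0.98 ± 0.29 (edgeR adjusted p = 0.015). Counts behind these levels were 226 sorted against 163 unsorted with vehicle and 210 against 170 with E2.

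No other tested T cell gene rose without the replicate block. CD3D, whose gene neighbours CD3E in ARS-UI_Ramb_v3.0, had 6 counts in sorted vehicle libraries and 3 in unsorted ones, a ratio of 300% with an exact 95% interval of 64% to 1850%. CD3G held 0.838 to 2.98 CPM sorted and 0.451 to 2.25 CPM unsorted, and entered the fit by its sorted level. Its log2 fold change of 0.67 ± 0.45 passed only with the replicate block (edgeR adjusted p = 0.23 without it and 0.024 with it). CD247, the zeta chain that signals for the complex, fell by 2.0 on the log2 scale (SE 0.21, edgeR adjusted p = 3.1e-06), from 16.8 to 29.9 CPM down to 3.83 to 7.40 CPM. The T cell kinase LCK (-0.80 ± 0.22, adjusted p = 0.0079) and the transcription factor TCF7 (-1.20 ± 0.34, adjusted p = 0.0088) fell as well by the same edgeR test. Of the 21 other T cell genes with a named row, 4 were tested, all named above: CD247, LCK and TCF7 were lower and CD3G was not called. That fit called 50.2% of all genes, 25.8% lower, and 4 genes are too few for a result about the list. Among the 17 that did not pass the filter, pooled counts were lower in sorted vehicle libraries for 12 and higher for 5. IL7R, named after its values were seen, had 1 count sorted and 133 unsorted, or 1.13% (exact 95% interval 0.0283% to 6.39%). The summed level of the 21 genes was 9.78 to 13.9 CPM sorted and 28.2 to 40.3 CPM unsorted. Most of the unsorted sum is that of CD247, so the fall of the sum is largely the fall of this gene. On the other side of CD3E lies MPZL2, an adhesion molecule gene, which was lower in sorted vehicle libraries (log2 fold change -1.50 ± 0.21, edgeR adjusted p = 3.9e-05).

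Further leukocyte genes, from lists that are not part of the 10 markers, were counted against a fit in which 50.2% of all genes were called, 25.8% lower. A share of called genes near the first value is no result about a list. Of 17 tested pan-leukocyte genes, 9 were lower in sorted vehicle libraries and none higher (1 higher with the replicate block), with a median log2 fold change of -1.0 against 0.02 over all genes. Those 9 calls are near the share of all genes called. The 4 with the smallest p were CYTIP, an adaptor of activated lymphocytes (-2.56 ± 0.38), PLEK, a substrate of protein kinase C in platelets and leukocytes (-1.94 ± 0.30), the chemokine receptor CXCR4 (-1.0 ± 0.16) and ARHGDIB (-2.45 ± 0.40), with edgeR adjusted p from 7.9e-05 to 0.00018. CYTIP and ARHGDIB had sorted medians of 0.343 and 0.429 CPM and entered the fit by their unsorted levels, so they had to differ. CD53, named after its values were seen, had a sorted vehicle mean of 0.109 CPM and entered likewise. The count of 9 and the median thus include genes that had to differ. The summed pan-leukocyte level, 746 to 1029 CPM sorted and 720 to 1048 CPM unsorted, is mostly that of LCP1, named after its values were seen, which averaged 828 and 801 CPM.

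Of 18 tested macrophage genes other than the markers, 7 were lower, 2 higher and 9 not past the threshold, with a median of -0.37. The 9 called genes are near the share called over all genes. NCF4, a subunit of the phagocyte oxidase, had a log2 fold change of -1.76 ± 0.30, APOE of -1.92 ± 0.29 and GPNMB of -1.64 ± 0.26, all with edgeR adjusted p of at most 0.00023. NCF4, at 0.344 to 0.683 CPM sorted, also entered the fit by its unsorted level. The 2 higher genes, named after their values were seen, were SIGLEC1, a sialic acid receptor of macrophages (1.61 ± 0.31, edgeR adjusted p = 0.00075), and HMOX1, haem oxygenase (0.71 ± 0.24, adjusted p = 0.023). SIGLEC1, at 0.535 to 1.41 CPM unsorted, entered the fit by its sorted level. Of 31 macrophage genes that the filter left out, 27 had lower pooled levels in sorted vehicle libraries, 4 higher, and 7 had 0 counts in all 6 sorted libraries. Among them, and named after their values were seen, ADGRE1 (F4/80) had 5 counts against 214 and MSR1, a scavenger receptor, 16 against 363. These are 3.5% (exact 95% interval 1.13% to 8.3%) and 6.6% (3.73% to 10.9%) of the unsorted level. The summed level of the 49 macrophage genes was 76.9 to 107 CPM sorted and 145 to 223 CPM unsorted.

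Few of the B cell, natural killer, neutrophil, mast and dendritic cell genes entered the main fit. It called 50.2% of all genes, 25.8% lower, and counts on so few genes are no result about a list. Of 4 tested B and plasma cell genes, 1 was lower and 0 were higher. CD79A (log2 fold change 0.44 ± 0.25), CD79B (0.28 ± 0.33) and JCHAIN (-0.08 ± 0.19) did not pass. The summed level of the 12 named genes of this list was 13.8 to 20.7 CPM in sorted vehicle and 25.9 to 42.0 CPM in unsorted vehicle libraries. No natural killer gene of 9 entered the fit; their summed level was at most 0.952 CPM in any vehicle library. Neutrophil and mast cell genes were lower for 3 of 3 tested, namely MMP9 (-1.74 ± 0.48), KIT (-1.41 ± 0.42) and S100A12 (-2.20 ± 0.85). MMP9 lost the call with the replicate block (edgeR adjusted p = 0.055). Of the 10 named genes of this list that were not tested, 5 had lower and 4 higher pooled levels in sorted vehicle libraries, and 1 had no count. Of 2 tested dendritic cell genes FSCN1, an actin bundler that other cells also make, was lower (-2.0 ± 0.23) and ZBTB46 did not pass (-0.52 ± 0.28).

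Sorted and unsorted E2 libraries gave the same counts of called markers. They are other libraries than the vehicle ones but deviate together with them by replicate number, so the comparison is not independent of the first. In the main fit, where 51.8% of all genes were called (26% lower, 25.8% higher), CSF1R, LAPTM5 and CD14 were lower, CD3E higher and CD68 not called. LAPTM5 alone was called lower without sorted E2 replicate 6 or unsorted E2 replicate 4, since CSF1R then left the fit through the filter and CD14 lost its call. Without the filter, where 36.2% of genes were called (18.9% lower, 17.3% higher), PTPRC, TYROBP and C1QB were lower besides, and C1QA did not pass. The median over the 9 genes was -3.05, against 0.01 over all genes.

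Estradiol itself moved none of the markers past the threshold. In unsorted cells 8 of them were tested against a background of 0.245% of genes called, and edgeR called 0; in sorted cells 4 were tested, against 1.37%, and edgeR again called 0. Without the filter 0 of 9 were called as well, against 0.167% and 0.731% of genes. No marker had an unadjusted p under 0.05 in these comparisons (0 of 8 and 0 of 4), and DESeq2 called 0 as well. Adding the replicate block raised the background to 5.24% and 13.2% and still gave 0 markers, with edgeR adjusted p from 0.74 to 0.98 in unsorted and from 0.64 to 0.93 in sorted cells. The difference of the E2 effects between sorted and unsorted cells was tested for 8 markers and called for 0 (background 0.0264%, or 0.463% with the block; unadjusted p from 0.51 to 0.92, edgeR). DESeq2 gave an adjusted p for 3 of them and called 0.

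In unsorted cells the interval of the E2 effect was narrowest for CD68, with a log2 fold change of 0.03 and a 95% interval of -0.41 to 0.46, and for CD14, with -0.03 (-0.54 to 0.48). It was wide for PTPRC, at -0.15 (-1.42 to 1.12), and for CSF1R, at 0.06 (-0.87 to 1.00). With the block the SE of LAPTM5 shrank from 0.40 to 0.09 around an unchanged effect of 0.04, and that of CSF1R from 0.48 to 0.14 around 0.08. In sorted cells the intervals without the block were 0.14 (-0.35 to 0.63) for CD14, 0.07 (-0.37 to 0.51) for CD68, 0.15 (-0.59 to 0.90) for LAPTM5 and -0.12 (-0.63 to 0.40) for CD3E. The remaining 5 markers had 1 to 58 counts per sorted group and did not enter that fit; without the filter they were not called.

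**Figure D4:**
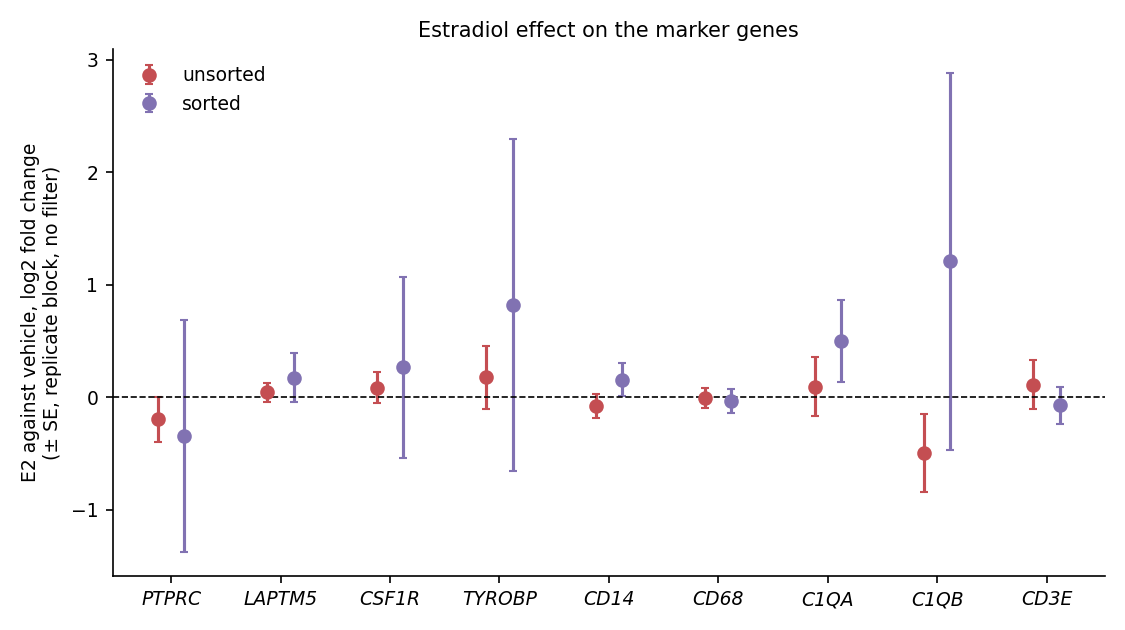
Log2 fold change of E2 against vehicle for each leukocyte gene in unsorted and sorted cells, from fits without a filter on low counts and with the replicate block; bars are ± 1 SE and the dashed line is no difference. None of the 18 values passed the test (background 5.05% of genes unsorted, 9.85% sorted), and the widest bars are those of TYROBP and C1QB in sorted cells, which rest on 6 and 4 counts.

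Unsorted libraries of 1 group differed widely. The highest library had the same replicate number with vehicle and E2 for PTPRC, LAPTM5, CD14, CD68, TYROBP, C1QB and CD3E, and another for CSF1R (4 and 3) and C1QA (4 and 5). The lowest had the same number for PTPRC, CD68, C1QB and CD3E, and another for the rest, among them LAPTM5 (1 and 6), CSF1R (2 and 1) and CD14 (1 and 2). LAPTM5 had its highest level in replicate 3 in both unsorted groups, at 23.9 CPM with vehicle and 26.4 CPM with E2. PTPRC too was highest there, at 5.53 and 4.01 CPM, and lowest in replicate 1, at 0.399 and 0.181 CPM. Replicates 3, 4 and 5 held the 3 highest CSF1R levels in either group, from 3.84 to 5.13 CPM with vehicle and from 3.35 to 6.35 CPM with E2. Replicates 1, 2 and 6 held 1.5 to 1.79 CPM and 0.904 to 2.08 CPM. Between the lowest and the highest unsorted vehicle library PTPRC differed 13.9-fold, LAPTM5 4.99-fold and CSF1R 3.41-fold, and CD68 differed 1.78-fold. Within a replicate number the E2 level of LAPTM5 was 0.777 to 1.55 times the vehicle level.

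**Figure D5:**
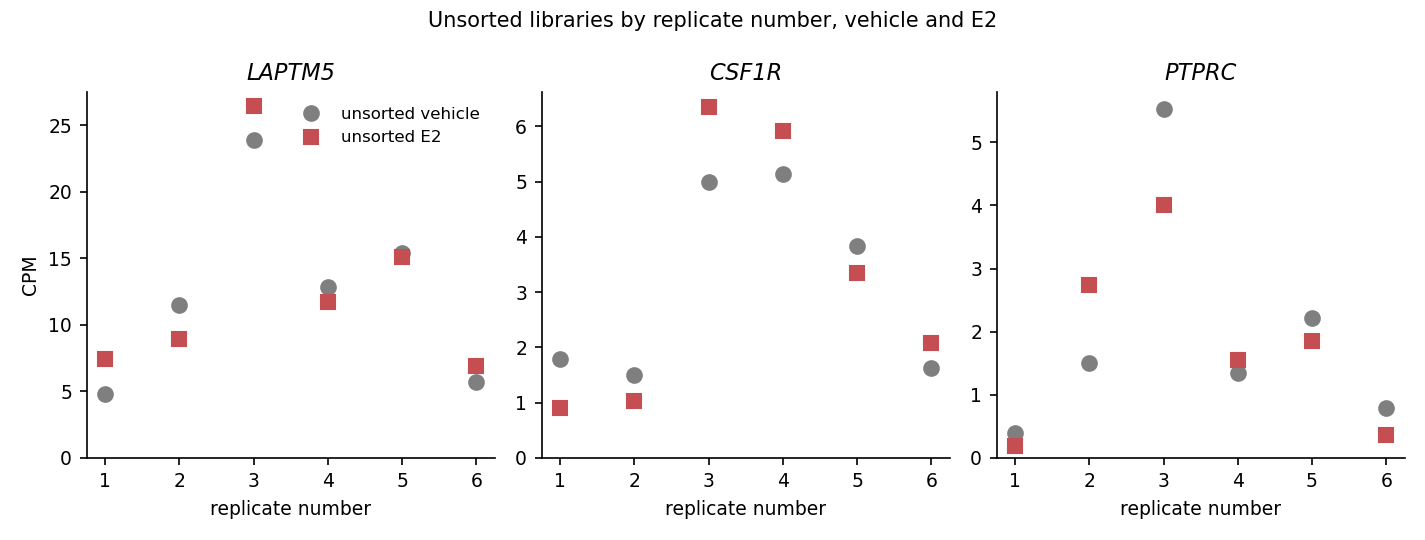
LAPTM5, CSF1R and PTPRC levels in the 12 unsorted libraries by replicate number, in CPM from 0, for vehicle (circles) and E2 (squares). Replicate 3 is the highest for LAPTM5 and PTPRC in both groups.

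Genes with the profile most like a marker were looked for among 11269 named genes that averaged 1 CPM or more, by the root mean square difference of centred log2 CPM. Over the 24 libraries the 5 nearest to CSF1R were TGFB3, FBLN7, TINAGL1, SPHK1 and TNC, at 0.685 to 0.774 log2 units, where the median gene lay at 2.1. Among the other 8 markers LAPTM5 was nearest to CSF1R, at 0.777, and CD3E farthest, at 2.6. For CD3E the 5 nearest genes were SVOP, FOXJ1, ARHGAP36, NR1D1 and PIP4P1, at 0.334 to 0.359, with a median gene at 0.798. Over the 12 unsorted libraries alone both lists changed entirely, to SDSL, SCN2B, PIEZO2, PALM3 and FAU for CSF1R (0.379 to 0.502, median gene 0.949) and to NQO2, IMPA2, BLVRB, HIST1H2BN and TMEM18 for CD3E (0.183 to 0.232, median gene 0.595). The 24 libraries share the sort and the 2 depths, and these distances are descriptions with no test.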

How the data were processed

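Each TruSeq library took 500 ng of total RNA, per the labels' protocols. The deposited values are whole-number read counts per gene with Ensembl sheep identifiers, 9994 of the 27054 features without a gene name, made with featureCounts 1.5.1 per the submitters' processing notes. For the aligner, the build and the strand option: not given in the sources used here. The authors' own tables of fold changes were not used. Vehicle libraries stand in 2 tables; 0 values differed between the copies.

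Each comparison was fitted on all genes with edgeR 4.0.16 in R 4.3.3 (TMM, filterByExpr, robust quasi-likelihood F-test, two-sided) on the 12 libraries compared, or all 24 for the difference of E2 effects. Adjusted p is Benjamini-Hochberg over all genes tested, with a threshold of 0.05; the SE divides the fold change by F's square root, and log2 CPM for profiles had a prior count of 2. Intervals on pooled counts are exact binomial at 95% and cover counting error only. The filtered fit without the block was tested on simulated counts, with changes set only in well-counted genes. Recovery of changes in genes with few counts, and the other fits, were not tested so. Alternatives were the replicate block, other scalings, no filter, DESeq2 1.42.0, each depth set alone or as a covariate, 1 fit of all libraries, and each library left out.

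Markers, lists and the naming rule (all markers, the 4 smallest p of each list, all known partners, the 5 nearest profiles of CSF1R and CD3E, gene neighbours) were chosen with earlier results of these data known. Libraries of equal replicate number deviated together, at r = 0.29 to 0.513 and 0.317 to 0.524 between sorted and unsorted, and at 0.661 to 0.859 and 0.57 to 0.837 between E2 and vehicle, so the numbers were taken to pair the samples; the labels do not say so. Nothing says that libraries of a group came from separate animals, so p-values measure the spread between these libraries, which may be technical. Gene neighbours are from the RefSeq assembly ARS-UI_Ramb_v3.0, used for gene order only. A few results on genes of these lists are not reported here.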

Additional observations from a re-analysis of the deposited data

Results flagged for a closer look

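In 36 groups of 6 libraries (9 markers in 4 groups) the highest and lowest library were compared with the rest, and 5 stood apart by a gap over 0.625 of the group's range; chance flags about 1 in 20 groups of normal values, and a single count in a group otherwise at 0 is always flagged. Unsorted vehicle replicate 3 held 5.53 CPM of PTPRC, with the next library at 2.22 CPM. Sorted vehicle replicate 6 held 0.293 CPM of CSF1R, from 7 counts, with the next at 0.106 CPM. C1QB stood apart 3 times: at 1.49 CPM in unsorted vehicle replicate 4 (next 0.535 CPM), at 0.0532 CPM in sorted vehicle replicate 4, the only one of its group with a count, and at 0.466 CPM in sorted E2 replicate 3, which holds 2 of that group's 3 counts (next 0.0478 CPM).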

How the results depend on the processing

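Depth limits PTPRC, CSF1R, TYROBP, C1QA and C1QB in sorted cells, where 1 to 58 counts stand behind a group. Between sorted and unsorted libraries, markers called lower numbered 3 with either treatment. They were 6 without the filter, with DESeq2 and without the filter but with the replicate block, 5 in replicates 4 to 6 alone and in 1 fit of all libraries, and 1 in replicates 1 to 3 alone, where with vehicle 0 were higher; fewer or more genes passed the filter in these fits. Leaving out each library gave 2 to 4 with vehicle and 1 to 4 with E2, with 1 without sorted E2 replicate 6 or unsorted E2 replicate 4. Of 48 and 49 member values under the other alternatives, 47 and 48 kept direction and side of the threshold, and CD14 in replicates 1 to 3 lost its call each time. Fits without the filter that leave out a library or use 1 depth set, and other scalings of the lists, were added after seeing the data. There, leaving out each library kept every vehicle call; with E2 the calls of CD14 (adjusted p up to 0.079), C1QB (up to 0.061) and CD3E (0.056, without sorted replicate 6) were lost in some of those fits, and in replicates 4 to 6 alone CD3E was lost (0.061).

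The number of genes called for E2 moved widely with the setting; the cause was not tested. In sorted cells 196 genes were called, against 1896 with the replicate block, 2143 with the block and no filter, 400 with DESeq2, 505 with depth as a covariate, 22 in replicates 1 to 3 and 125 to 208 with a library left out (125 without sorted vehicle replicate 3, 130 without replicate 2). In unsorted cells 37 were called, against 790, 1117, 122, 143, 0 and 11 to 48 (11 without unsorted E2 replicate 5, 21 or fewer also without unsorted E2 replicates 1, 4 and 6 or unsorted vehicle replicates 4, 5 and 6), with 20 in replicates 4 to 6 and 73 in 1 fit of all libraries. For the difference 4 were called, against 70, 57, 17, 15, 0 and 0 to 4 (0 or 1 unless the library left out was sorted vehicle replicate 1, sorted E2 replicate 2 or unsorted E2 replicate 4), with 0 in replicates 4 to 6 and 0 without the filter. No marker was called for E2 in these fits. Over all 6 replicates the replicate block changed no call on a marker; between sorted and unsorted vehicle replicates 1 to 3 it brought CD68 past the threshold (adjusted p = 0.03, 0.065 without it).

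E2 effects on markers near 0 changed sign. In sorted cells CD68 (main 0.07) had -0.027 with the replicate block, -0.032 with block and no filter, -0.212 in replicates 4 to 6 and -0.036 to 0.207 with a library left out; CD3E had -0.245 to 0.018. In unsorted cells CD14 (-0.03) had 0.18 in replicates 1 to 3; CD68 (0.03) had -0.011 with the block, -0.006 with block and no filter and -0.05 in replicates 4 to 6; LAPTM5 had -0.003 there. With a library left out, PTPRC ranged from -0.50 to 0.36, CSF1R from -0.23 to 0.30, CD14 from -0.20 to 0.15, CD68 from -0.13 to 0.14, LAPTM5 from -0.27 to 0.31, C1QA from -0.021 to 0.251 and CD3E from -0.013 to 0.195. For the difference, replicates 1 to 3 gave PTPRC 0.30, CD14 -0.18 and LAPTM5 -0.037; replicates 4 to 6 gave CSF1R -0.018, CD68 -0.19 and TYROBP -0.14; and the block with no filter gave CD68 -0.006. With a library left out the ranges were -0.72 to 0.26 for PTPRC, -0.11 to 1.08 for CSF1R, -0.012 to 0.316 for CD14, -0.092 to 0.195 for CD68 and -0.29 to 0.45 for LAPTM5.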

Other observations

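A leukocyte gene outside the 10 markers, ITGAL, the alpha chain of the leukocyte integrin LFA-1, differed with E2 in the blocked fits; it was named after its values were seen. It held 3.47, 1.37, 0.172, 0.532, 0.585 and 0.712 CPM in sorted vehicle replicates 1 to 6, and 7.62, 2.22, 1.4, 3.01, 1.95 and 6.23 CPM in sorted E2 replicates 1 to 6. Each E2 library was above its vehicle partner, and the groups overlapped. In sorted cells the log2 fold change was 1.84 ± 0.60 without the replicate block (edgeR adjusted p = 0.26) and 2.09 ± 0.26 with it (adjusted p = 1.6e-05). ITGAL entered that comparison by its E2 level, with medians of 0.649 CPM for vehicle and 2.62 CPM for E2. It thus had to differ there, and these p-values are no support. In unsorted cells the log2 fold change was 1.08 ± 0.36 (edgeR adjusted p = 0.70) and 1.31 ± 0.31 with the block (adjusted p = 0.03). The blocked fits called 13.2% of all genes in sorted and 5.24% in unsorted cells.

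With the block, and only with it, IL34 rose under E2 in sorted cells (0.34 ± 0.06 on the log2 scale, edgeR adjusted p = 0.0005). In unsorted cells, again with the block alone, CD74, the invariant chain of MHC class II, rose (0.41 ± 0.11, edgeR adjusted p = 0.031) and LCP2, an adaptor of T cell and myeloid signalling, fell by 0.58 on the log2 scale (SE 0.14, adjusted p = 0.019). The last 2 genes were also named after their values were seen. In sorted cells the block called 1 of 11 tested pan-leukocyte genes, 1 of 12 partners of the markers and 0 of 14 macrophage genes. In unsorted cells it called 1 of 16 pan-leukocyte genes higher and 1 lower, and 1 of 31 macrophage genes. Beside the 13.2% and 5.24% of all genes called, these single calls are no result about leukocyte genes as a set.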
